A study of Rattus norvegicus with 20 samples.

Results

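The livers of young rats fed 20% less than their controls for 1 week were compared with those of the controls, over 7055 genes measured on Affymetrix rat GeneChips. The comparison takes 4 of the 20 arrays of the series, the 2 arrays of the 1 week control and the 2 arrays of the 1 week 20% restriction, as the array titles name them. All animals were male Wistar rats, a common outbred laboratory strain, labelled 6 weeks old on the 1 week arrays and 9 weeks old on the 1 month arrays. The series holds 5 levels of intake (no restriction and 5%, 10%, 20% and 30% restriction) at 2 durations, 1 week and 1 month. Every rat, control or restricted, went without food for 16 h before its liver was removed, so the control group is also a fasted one. RNA of 5 rats was pooled in each group and the pool was run on 2 arrays. Each side of the comparison is therefore 1 sample, the spread between rats was not measured, and no p-value can be given for 20% against control at 1 week. The labels give neither body weight, nor the amount eaten, nor the time of day at which livers were taken.

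The liver stores surplus food energy as fat and releases fuel in fasting. Fatty acids are made from acetyl-CoA by a chain of lipogenic enzymes under the transcription factors Srebp-1c and Chrebp, and cholesterol by a longer chain under Srebp-2. Scap carries the Srebp proteins to be activated, and the Insig proteins hold them back. Insulin, glucose and sterols set the activity of these factors, and fasting lowers it. The liver also has its own circadian clock, in which Bmal1 and Clock drive the Per, Cry and Rev-erb genes that in turn repress them. The time of feeding is known to shift this clock.

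A gene counted as higher or lower at 20% when the log2 difference between the 2 pool means was at least 1 (2-fold) and both arrays of one pool lay above both arrays of the other. This size rule is a description and not a test. Signals are in the arbitrary units of the MAS5 software after quantile normalization over all 20 arrays, and a pool value is the geometric mean of its 2 arrays. Probe sets in the upper 60% by mean signal were kept, 9520 of 15866, of which the dimmest had a mean of 11.7 units. Each gene was read from its brightest probe set. Where a pool value lay under 11.7 units it was raised to that level for the fold, which is then given as "at least".

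Over probe sets, 469 of 9520 passed the size rule, 4.93%, with 246 higher and 223 lower at 20%. Over genes, 182 of 7055 were higher (2.58%) and 154 were lower (2.18%). The median difference of all genes was 0.00 on the log2 scale. With low values raised, 132 genes were at least 2-fold higher and 127 at least 2-fold lower, 16 and 14 at least 4-fold, 5 and 6 at least 8-fold, and 3 in each direction at least 16-fold. Hsd17b2, Mt2A and Dbp were the 3 above 16-fold, and Pnpla3, Fasn and Slc6a6 the 3 below.

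Array error was large among dim genes and small among bright ones. Of all 7055 genes, 350 were at least 2-fold apart between the 2 arrays of the control pool (4.96%) and 242 between those of the 20% pool (3.43%). Of the 1130 genes with a mean signal of at least 200 units, 57 passed the size rule (29 higher and 28 lower), while 1 was 2-fold apart between the control arrays and 0 between the 20% arrays. Arrays of 1 pool correlated at r = 0.954 (control) and 0.966 (20%), and arrays of the different pools at 0.928 to 0.950, over 9520 probe sets. Array (1) of the 20% pool was closest to an array of the 1 month 10% pool (r = 0.970). The 3' to 5' signal ratio of the Gapdh control probes, a measure of RNA integrity, was 1.5 and 1.52 in the control arrays and 1.32 and 1.34 in the 20% arrays, against 1.17 to 1.62 in the other 16 arrays. For actin this ratio was 2.89 and 2.58 in the control and 2.68 and 2.54 at 20%. The part of RNA integrity in the differences below was not tested.

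**Figure D1:**
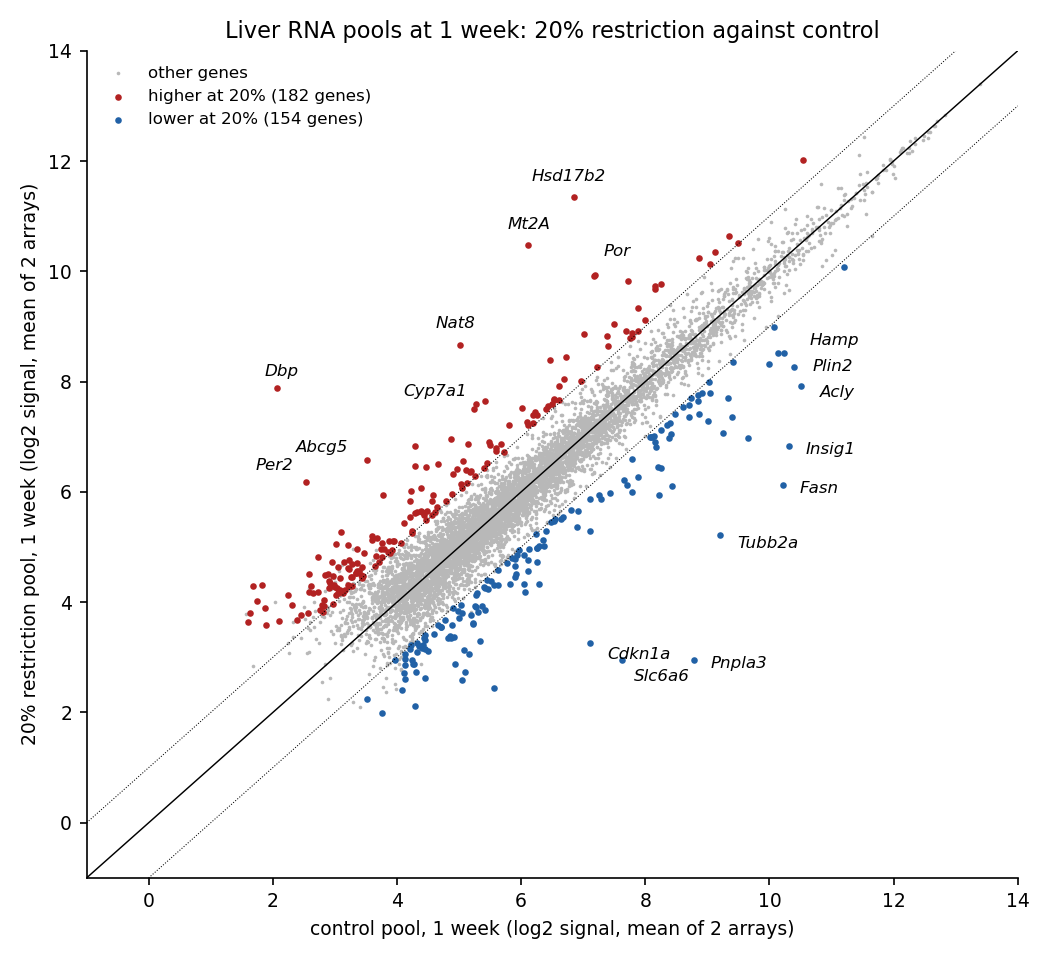
Log2 signal of 7055 genes in the 1 week control pool (x axis) and in the 1 week 20% restriction pool (y axis), each the mean of 2 arrays. The solid line marks equal signal and the dotted lines a 2-fold difference, and the 182 genes higher and 154 lower by the size rule are coloured. Hsd17b2, Mt2A and Dbp lie farthest above the line, and Pnpla3, Slc6a6 and Fasn farthest below.

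The hepatocyte markers fitted the label of the tissue. All 10 were measured, 0 passed the size rule, and their summed signal was 39502 and 40252 units in the control arrays and 39245 and 38987 at 20%. This sum includes Alb, which quantile normalization makes equal on all arrays, so its steadiness is partly fixed in advance. The list median was -0.06. Under median centring it was -0.18, with 8 of the 10 below the median of all genes. None of the 9 Kupffer cell, 8 endothelial, 14 stellate cell or 4 bile duct markers measured passed either, with list medians of -0.10, 0.21, 0.08 and -0.31. Of 4 neutrophil markers on the array 0 were bright enough to be kept, and of 13 lymphocyte markers 3 were. Both red blood cell markers measured stood below the control at 20%, but Hbb (beta globin), at -0.72, did not pass the size rule. The summed signal of Hbb and Alas2 (the heme synthesis enzyme of red cells) was 2083 and 2158 units in the control and 1288 and 1274 at 20%. Alas2 passed the size rule (56.3 and 59.2 against 27.5 and 28.2 units), but not with 16 units added to every signal or with the signals as deposited. In pooled bulk liver, fewer cells of a type and less RNA per cell cannot be told apart.

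Lower signals at 20% were common among genes of fatty acid and triglyceride synthesis. Of the 27 measured, 14 passed the size rule as lower and 0 as higher, against 2.18% and 2.58% of all genes, and the list median was -1.04 on the log2 scale against 0.00 for all genes. Of the 27, 24 lay below the median of all genes.

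Pnpla3, a lipid droplet protein that is strongly induced by feeding, read 454 and 426 units in the control arrays and 5.64 and 10.6 units at 20%. It was at least 37.7-fold lower, the largest decrease by the raised values. Fasn, the synthase that builds palmitate, read 1153 and 1237 units in the control and 76.9 and 63.8 units at 20%, a log2 difference of -4.09 (SE 0.14, from the arrays only), or 17.1-fold. The array values of the 2 groups were more than 10-fold apart for both genes. Acly, which makes the cytosolic acetyl-CoA for this pathway, read 1411 and 1495 against 247 and 236 units (6.02-fold lower). Acaca, which commits acetyl-CoA to fatty acid synthesis, was lower by less, at 331 and 324 against 151 and 146 units (2.21-fold).

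The suppliers of NADPH and of substrate were lower too: Pgd of the pentose phosphate pathway by 3.34-fold, Me1 (malic enzyme) by 2.29-fold, Acss2 by 2.19-fold, and the liver pyruvate kinase Pklr by 2.12-fold. Elovl6 and Elovl5, which lengthen fatty acids, were 3.26-fold and 2.19-fold lower, and Gpam, the first step of glycerolipid synthesis, 2.82-fold lower. Both transcription factors of the pathway were lower: Srebf1 read 603 and 694 units in the control and 219 and 198 at 20% (3.11-fold), and Mlxipl, which encodes Chrebp, was 2.22-fold lower. Scd, the desaturase that makes oleate, lay just short of the rule at 3233 and 3190 against 1588 and 1623 units (log2 difference -0.9999). Genes at the end of the triglyceride pathway did not pass it, with Dgat1 at 0.14 and Dgat2 at 0.25, and Thrsp, a lipogenic gene, stood at -0.15. With the signals as deposited, Acaca and Pklr did not pass the rule, and Pklr also missed it without array 1 at 20%. The alternatives were not run on Elovl6, Elovl5, Gpam, Me1, Acss2 and Mlxipl, so how far these depend on scaling is not known. The list median as deposited was -0.69, against 0.40 for all genes.

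**Figure D2:**
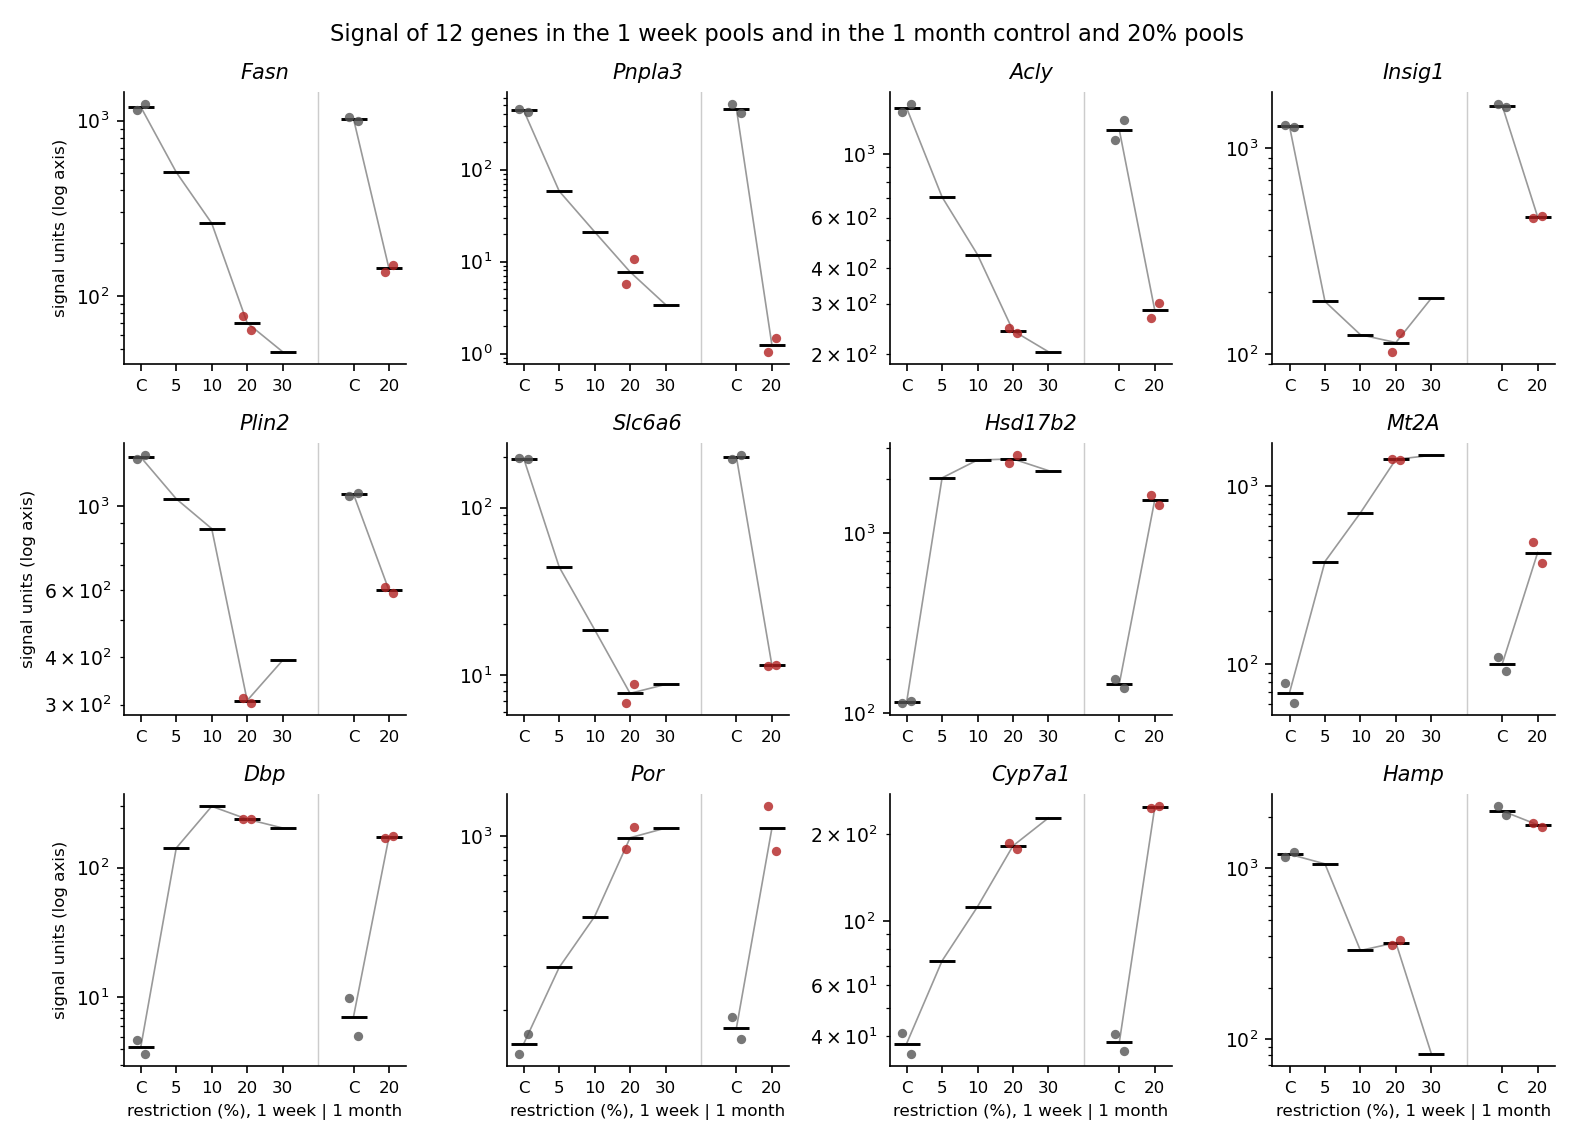
Signal of 12 genes, in units on a log axis, in the 5 pools of 1 week (left of the grey line) and in the control and 20% pools of 1 month (right). Points are single arrays of the control (grey) and 20% (red) pools and black bars are pool means. Fasn, Pnpla3, Acly, Insig1, Plin2, Slc6a6 and Hamp are lower at 20% than in the control at 1 week, and Hsd17b2, Mt2A, Dbp, Por and Cyp7a1 higher.

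Cholesterol genes past the rule were also lower. Of the 20 measured, 8 passed the rule as lower and 0 as higher, against 2.18% and 2.58% of all genes. The list median was -0.76, and 19 lay below the median of all genes. Insig1, a Srebp target whose protein holds Srebp in the endoplasmic reticulum, read 1292 and 1261 units in the control and 103 and 126 at 20%, 11.2-fold lower (log2 difference -3.49, SE 0.15). Insig2 read 691 and 657 against 167 and 161 units (4.11-fold lower). Among the enzymes, Dhcr7, the last step to cholesterol, read 283 and 318 against 58.5 and 64.7 units (4.88-fold), Pmvk was 3.51-fold lower, Cyp51 2.38-fold lower, and Mvd at least 2.63-fold lower. Lss (-0.80), Idi1 (-0.70), Fdft1 (-0.56) and Msmo1 (-0.37) did not pass the rule. Srebf2, which encodes Srebp-2, stood at 0.06.

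The promoter of Insig1 is shown because it holds matches to CCAAT and to the E-box, a motif of the clock genes described next. The sterol element of Srebp was not among the motifs searched. From the RefSeq table of build GRCr8, the bases 250 to 51 upstream of the Insig1 start are at chr4:8057820-8058019 on the minus strand, and capitals mark ATTGG, which is CCAAT on the other strand and the site of the factor NF-Y, and CACGTG, the E-box.
Insig1: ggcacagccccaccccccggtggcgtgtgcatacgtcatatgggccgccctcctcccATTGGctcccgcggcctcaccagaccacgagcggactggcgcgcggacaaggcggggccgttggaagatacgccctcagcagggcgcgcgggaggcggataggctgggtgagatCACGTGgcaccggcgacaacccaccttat
The searches covered both strands of 250 bases before to 50 after each start, and a match is a description of letters only. Of the 11 genes of fatty acid synthesis and 7 of cholesterol synthesis that were lower and had a promoter in the table, 9 (81.8%) and 4 (57.1%) held CCAAT, against 39.6% of 27457 genes. CACGTG was in 1 of the 11 (Elovl5) and in 1 of the 7 (Insig1), against 7.08% of all genes. Fasn has no entry in that table.

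Clock genes differed in both directions. Of the 15 measured, 7 were higher and 2 lower, against 2.58% and 2.18% of all genes, and the list median was 0.97. Dbp, a clock output factor that binds the D-box, read 4.72 and 3.69 units in the control and 235 and 236 at 20%, at least 20.2-fold higher. Per2, a repressor of Bmal1 and Clock, read 16.1 and 2.07 units in the control and 70.1 and 74.0 at 20%, at least 6.18-fold higher; its 2 control arrays differed widely, but both lay far below the 20% arrays. Nr1d2 (Rev-erb beta) read 40.5 and 44.8 against 196 and 204 units (4.69-fold higher), and Nr1d1 (Rev-erb alpha) 25.1 and 22.1 against 54.8 and 59.7 units (2.43-fold). Usp2 (4.97-fold), Hlf (3.46-fold) and Cry2 (3.06-fold) were also higher.

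The positive arm was lower. Bmal1 read 47.7 and 46.7 units in the control and 12.8 and 2.30 at 20%, at least 4.05-fold lower. Clock, its partner, read 68.5 and 53.5 against 24.7 and 20.9 units (2.67-fold lower). A second Clock probe set, at 57.9 and 38.3 against 21.9 and 27.1 units (1.93-fold lower), did not pass the rule. Per1 (19.5 and 26.6 against 33.7 and 25.8 units) did not pass the rule, and its groups overlapped. Clock and Nr1d1 missed the rule with 16 units added to every signal. Hlf and Cry2 were not run under this or the other alternatives. Nfil3, which competes with Dbp for the D-box, stood at -0.18, and Tef, a relative of Dbp, at 0.97.

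Stretches of 2 clock promoters are shown since Per2 and Nr1d1 carry the textbook elements through which Dbp and Bmal1 act. Both are from RefSeq on GRCr8 and lie on the minus strand, Per2 at chr9:99497084-99497243 (250 to 91 bases upstream) and Nr1d1 at chr10:84229585-84229704 (250 to 131 bases upstream). Capitals mark the D-box TTATGTAA and CCAAT in Per2 and the E-box CACGTG in Nr1d1.
Per2: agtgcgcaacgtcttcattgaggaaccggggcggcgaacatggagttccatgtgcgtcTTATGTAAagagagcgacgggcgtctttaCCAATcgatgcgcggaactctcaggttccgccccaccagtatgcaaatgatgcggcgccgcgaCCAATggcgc
Nr1d1: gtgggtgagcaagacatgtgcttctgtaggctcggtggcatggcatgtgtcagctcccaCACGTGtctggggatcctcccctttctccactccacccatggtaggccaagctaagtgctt
Of 8 clock genes past the rule with a promoter in the table, 1 (Per2) held TTATGTAA, against 0.958% of all genes, 0 held TTACGTAA (0.135%), 1 (Nr1d1) held CACGTG and 7 held CCAAT (87.5%).

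Some genes that dispose of cholesterol were higher. Of 22 genes of bile acid synthesis and bile transport, 5 were higher and 0 lower, against 2.58% and 2.18% of all genes. The list median was 0.31. Cyp7a1, which catalyses the first and limiting step of bile acid synthesis, read 41.0 and 34.9 units in the control and 187 and 177 at 20% (4.81-fold higher). Abcg5 and Abcg8 encode the pair of half-transporters that export sterols into bile. Abcg5 read 13.1 and 9.94 against 90.6 and 101 units, at least 8.20-fold higher, and Abcg8, a dimmer probe set, 9.55 and 9.80 against 30.5 and 21.6 units, at least 2.20-fold. Akr1d1 (2.60-fold) and Akr1c14 (2.12-fold), which reduce the sterol ring, were higher as well. The bile salt exporter Abcb11 (-0.21), the uptake carrier Slc10a1 (0.41) and Cyp8b1 (0.13) did not pass the rule. Abcg8 missed it with 16 units added, and Akr1c14 without array 2 of the control.

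Fatty acid oxidation genes had members past the rule in both directions. Of 40 genes, 6 were higher, 3 lower and 31 neither, against 2.58% higher and 2.18% lower among all genes. The list median was 0.23, and 31 lay above the median of all genes. The 6 that were higher encode enzymes of oxidation, while others such as Acadl (0.21), Acads (0.10) and Acadm (0.00) did not pass. Ech1, an auxiliary enzyme for unsaturated fatty acids, read 212 and 209 units in the control and 894 and 914 at 20% (4.29-fold). Eci1 was 2.99-fold higher, Hacl1 of the peroxisome 2.90-fold, Ehhadh 2.16-fold and Cyp4a3 2.02-fold. Cpt1a, the gate for fatty acids into mitochondria, read 576 and 542 against 1339 and 1271 units (2.33-fold higher).

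Plin2, Angptl4 and Pdk4 were the 3 lower. Plin2, which coats lipid droplets, read 1326 and 1357 units in the control and 312 and 303 at 20% (4.36-fold lower, SE of the log2 difference 0.03). Angptl4, an inhibitor of lipoprotein lipase, was 2.13-fold lower, and Pdk4, a kinase that shuts off pyruvate dehydrogenase and rises in fasting, read 89.0 and 111 against 45.8 and 45.2 units (2.18-fold lower). Fgf21, a fasting hormone of the liver, stood at 29.4 and 30.6 against 32.1 and 34.9 units, and Ppara, the nuclear receptor of this program, at 0.99. Pdk4 and Angptl4 missed the rule with the signals as deposited. Pdk4 also missed it with 16 units added and without array 2 of the control, and Angptl4 without array 1 of the control. Ehhadh and Cyp4a3 were not run under the alternatives. Fabp5, a fatty acid carrier outside the list, read 755 and 851 against 130 and 123 units (6.36-fold lower).

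Among drug and steroid enzymes the called genes were mostly higher. In drug metabolism 9 of 49 were higher and 1 lower (median 0.28), and among steroid-metabolising enzymes 4 of 14 were higher and 0 lower (median 0.16). Over all genes 2.58% were higher and 2.18% lower, so the 1 lower of 49 was near the share of all genes. Hsd17b2, which inactivates estradiol and testosterone, read 114 and 116 units in the control and 2478 and 2717 at 20%, 22.6-fold higher (log2 difference 4.50, SE 0.07), the largest increase by the raised values. Por, the electron donor of all microsomal cytochromes P450, read 133 and 160 against 888 and 1088 units (6.72-fold). Inmt, an N-methyltransferase, read 149 and 138 against 949 and 985 units (6.73-fold), and Nat8, an acetyltransferase, 37.6 and 28.0 against 407 and 404 units (12.5-fold).

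Adh4 (5.83-fold), Aldh1a1 (3.82-fold) and Adh1c (2.79-fold) of alcohol and retinal metabolism, Fmo1 (3.29-fold) and the sulfotransferase Sult2a6 (3.61-fold) were higher. Nr1i3, which encodes the xenobiotic receptor CAR, read 49.1 and 47.9 against 105 and 109 units (2.21-fold higher). Cyp2c12, known as the P450 of female rats, read 354 and 335 against 64.0 and 74.4 units (4.99-fold lower), whereas Cyp2c11, the male form, stood at 0.02 and Cyp2c13 at 0.10.

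Metallothionein 2 was among the largest increases. Mt2A, which binds zinc and copper, read 78.9 and 60.9 units in the control and 1428 and 1411 at 20% (20.5-fold higher, log2 difference 4.36, SE 0.19). Mt1 stood at 0.41, and Mt1 and Mt2A are close paralogs whose probe sets may share signal. Of the 17 genes in the list of glucocorticoid-induced genes and metallothioneins, Mt2A was the 1 higher and 3 were lower (Cdkn1a, Sgk1 and Angptl4). Over all 7055 genes the shares were 2.58% higher and 2.18% lower. Tat, Fkbp5 and Pck1, which glucocorticoids induce in liver, stood at 0.03, 0.37 and -0.13. The Mt2A promoter is shown with its E-box and CCAAT box in capitals, from RefSeq on GRCr8, chr19:10838709-10838958 on the minus strand, the 250 bases before the start. Of all genes, 7.08% held CACGTG and 39.6% held CCAAT. Elements that respond to metals were not searched.
Mt2A: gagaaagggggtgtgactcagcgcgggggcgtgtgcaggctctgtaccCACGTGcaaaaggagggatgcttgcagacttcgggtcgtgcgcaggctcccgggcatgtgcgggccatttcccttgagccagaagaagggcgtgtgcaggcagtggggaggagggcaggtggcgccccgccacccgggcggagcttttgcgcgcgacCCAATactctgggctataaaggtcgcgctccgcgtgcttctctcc

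Sgk1 and Cdkn1a were lower than the control at each restriction level of 1 week. Cdkn1a, the cell cycle inhibitor p21, read 116 and 165 units in the control and 17.4 and 5.31 at 20%, at least 11.9-fold lower, with pool values of 10.9, 4.57 and 19.7 units at 5%, 10% and 30%. Sgk1, a kinase under corticoid control, read 215 and 228 against 63.4 and 64.7 units (3.45-fold lower), with 34.8, 31.3 and 81.7 units at the other levels. Among 23 cell cycle genes 5 were lower and 0 higher (median -0.14), against 2.18% and 2.58% of all genes. The 5 were Cdkn1a with the mitotic genes Ccnb1 (at least 2.92-fold), Ccnb2 (at least 2.89-fold) and Birc5 (at least 1.69-fold) and the replication gene Mcm5 (at least 1.67-fold). The last 4 had at most 40.8 units on any of the 4 arrays. Mcm5 was not run under the alternatives, and Ccnb2 and Birc5 missed the rule with 16 units added. Ccnb2 also missed it without array 1 at 20%, and Birc5 without array 2 at 20%. Tubb2a, a tubulin, read 634 and 553 against 41.4 and 33.2 units (just short of 16-fold lower).

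Genes of the insulin and growth hormone axis differed in a few members. Of 28, 4 were higher and 0 lower (median 0.09), against 2.58% and 2.18% of all genes. Irs2, the insulin receptor substrate that fasting induces, read 13.4 and 12.3 against 27.0 and 47.0 units. The others were Igfbp2 (at least 2.55-fold), Cish, a target of growth hormone signalling through Stat5, and Prlr, the prolactin receptor (2.05-fold). Cish read 25 and 36.0 units in the control and 67.6 and 96.2 at 20% (2.69-fold higher). Igf1, the main product of growth hormone in liver, read 2220 and 2645 against 1651 and 2008 units, and Igfbp1, which insulin represses, 344 and 349 against 285 and 300 units. Neither passed the rule. Irs2, Igfbp2 and Prlr, all dim, missed it with 16 units added. Igfbp2 and Prlr also missed it without array 2 at 20%, and Prlr without array 2 of the control.

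Glucose metabolism had genes past the rule in both directions. Of 22 genes of gluconeogenesis, glycolysis and glycogen, 2 were higher (Ugp2, 2.45-fold, and the liver glycogen synthase Gys2, 2.14-fold) and 2 lower (Pklr and Gckr, 2.56-fold), with a median of -0.03, against 2.58% higher and 2.18% lower among all genes. Gys2 missed the rule with 16 units added and without array 1 of the control. Pck1, the entry enzyme of gluconeogenesis, read 2359 and 1918 units in the control and 1966 and 1918 at 20%. Among 42 genes of the urea cycle and amino acid breakdown, 1 was higher and 3 lower (median 0.10). Slc6a6, the taurine transporter, read 198 and 194 against 6.8 and 8.81 units, at least 16.8-fold lower. Cth, which makes cysteine, was 3.29-fold lower, and Kynu of the kynurenine pathway 3.18-fold lower. Sds, the serine dehydratase that feeds gluconeogenesis, had pool values of 206 and 485 units (2.36-fold higher).

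Of 22 genes listed for Atf4 and the response to amino acid shortage, 3 were higher and 0 lower (median 0.42). Among all genes, 2.58% were higher and 2.18% lower. Not every member of this list is a target of Atf4. Eif4ebp3, a brake on translation, read 129 and 128 units in the control and 483 and 444 at 20% (3.59-fold higher). Nupr1 was 2.32-fold and Gas5 2.24-fold higher. Gas5 missed the rule with 16 units added and without array 2 of the control. Trib3, a textbook target of this response, stood at 0.41 and Atf4 itself at 0.01.

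Iron genes had 1 higher and 2 lower of 19 (median 0.09), against 2.58% higher and 2.18% lower among all genes. Hamp, which encodes hepcidin, the hormone that blocks iron export, read 1171 and 1246 units in the control and 355 and 378 at 20% (3.30-fold lower). Slc40a1, which encodes the exporter ferroportin, read 125 and 125 against 249 and 268 units (2.07-fold higher). Ppox of heme synthesis was 2.54-fold lower. Slc40a1 and Ppox missed the rule with 16 units added. Slc40a1 also missed it without array 2 at 20%, and Ppox without array 1 at 20%. Hamp was the 1 gene past the rule among 35 acute phase and plasma protein genes, a share near the 2.18% lower of all genes. The median of these 35 was 0.00. Under median centring it was -0.09, with 25 below the median of all genes. In phospholipid metabolism 1 of 17 was higher and 1 lower: Pla2g12a at least 2.83-fold higher, and Chka, the choline kinase, 78.8 and 77.1 against 21.5 and 18.8 units (3.88-fold lower). Litaf, an endosomal protein outside the lists, read 588 and 634 against 142 and 126 units (4.55-fold lower). Nceh1, a cholesteryl ester hydrolase, was 4.49-fold and Ankrd40 4.55-fold higher, with control arrays that differed widely (26.6 and 6.97 units, and 11.7 and 32.4 units).

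Several large lists held no gene past the rule. These were 28 endoplasmic reticulum chaperones (median -0.18), 17 heat shock proteins (0.00), 35 ribosomal proteins (-0.11), 29 proteasome subunits (-0.19), 51 subunits of oxidative phosphorylation (-0.10), 27 autophagy and lysosome genes (0.07) and 30 interferon and antigen presentation genes (0.10). Of 26 antioxidant genes 1 was higher, Gclm of glutathione synthesis (2.06-fold), a share near the 2.58% of all genes, and it missed the rule with 16 units added and without array 2 of the control. Small shifts in 1 direction were still shared by many members: 42 of 51 oxidative phosphorylation genes, 28 of 35 ribosomal and 25 of 29 proteasome genes lay below the median of all genes. With the signals as deposited, where the median of all genes was 0.40, these medians became 0.23, 0.22 and 0.14, and 44, 31 and 25 members lay below that median.

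**Figure D3:**
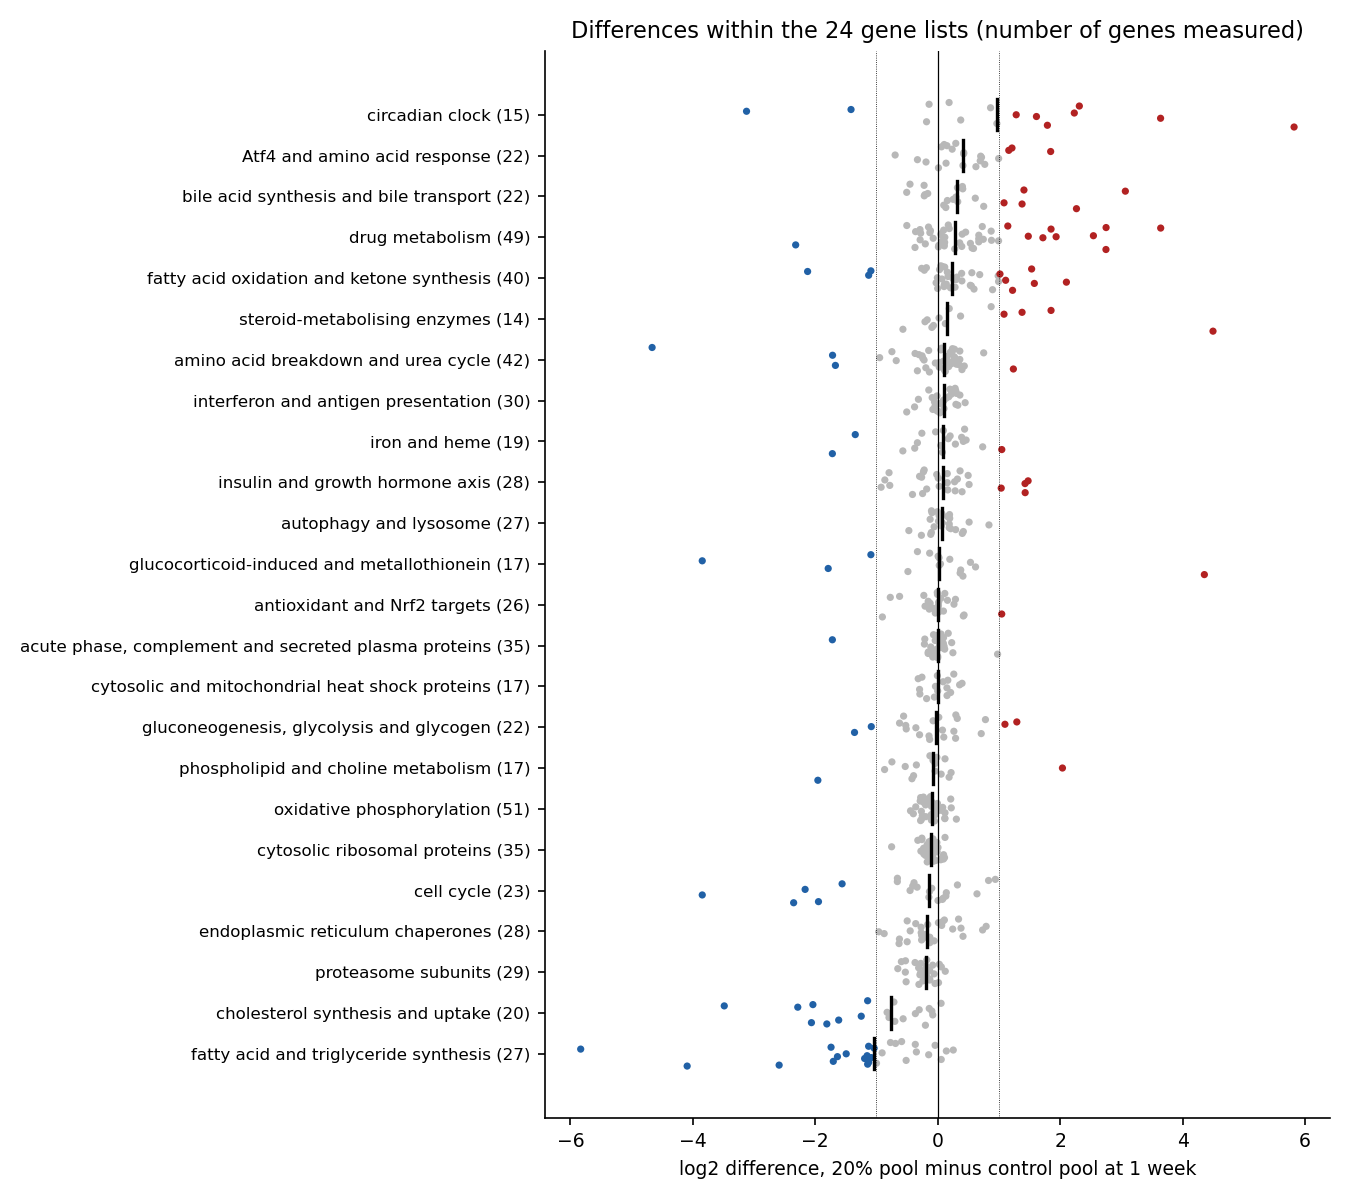
Log2 difference between the 20% and control pools at 1 week for the measured genes of 24 lists, 1 point a gene, with the number of genes in parentheses. Black bars are list medians, dotted lines mark 2-fold, and coloured points passed the size rule. The medians run from -1.04 in fatty acid and triglyceride synthesis to 0.97 in the clock genes.

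Against its neighbours in dose at 1 week, the 20% pool differed in fewer genes than against the control. Of 7055 genes, 96 passed the rule against the 10% pool (1.36%; 37 higher and 59 lower at 20%) and 139 against the 30% pool (1.97%; 93 higher and 46 lower). Relative to 10%, the lower genes included Fasn (259 units at 10%), Tubb2a (93.7), Plin2 (871), Kynu (756) and Nr1d1 (131), each a pool value. Those above their 10% value included Por (475 units at 10%), Nat8 (183) and Sgk1 (31.3). Pnpla3 (21.1 units at 10%) and Slc6a6 (18.6) passed the rule as lower too, but with 20% values under 11.7 units, and with these raised they were 1.81-fold and 1.6-fold lower, short of 2-fold. Cdkn1a lay under 11.7 units in both pools, so no fold is given for it. Hsd17b2 was at 2035 units in the 5% pool and 2560 in the 10% pool, Insig1 at 180 and 124 units, and Dbp at 141 and 296 units, so for these 3 genes the 20% value did not differ by the rule from that at 10%.

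Relative to 30%, Hamp (81.9 units at 30%), Cyp2c12 (30.5 units) and Cish (14.3 units) were above at 20%. Fasn at 30% was 47.9 units, Acly 203, Plin2 392, Mt2A 1494, Por 1075 and Cyp7a1 227, within 2-fold of their 20% values. Igfbp1 (579 units at 30%) and Tat (597) also lay within 2-fold of their 20% values.

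Of the 182 genes higher by the rule, 60 lay above all 9 other pools of the series, and of the 154 lower, 43 lay below them. The rule picked these genes by their distance from 1 of the 9, the 1 week control, so both counts are partly fixed by the choice. Among all 7055 genes, 618 lay above and 552 below every other pool, and 0 genes lay 2-fold beyond every other pool. The largest gaps above the other pools were those of Cish, Cib2, Wdr77, Sarnp, Rab3b and Pecam1, and below them those of Maz, Tepsin, Rbm15b, Rpp30, Wdr43 and Dtx4. Most of these were dim: Cib2 read 12.2 and 6.46 units in the control and 23.9 and 29.7 at 20%. Wdr77 and Sarnp were brighter, at 39.6 and 48.6 against 82.4 and 85.3 units and at 108 and 97.8 against 166 and 132 units, and neither passed the rule against the control. Pecam1, an endothelial marker, read 18.1 and 14.2 against 23.4 and 30.3 units and did not pass it either.

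The pools at 1 month share no RNA with those at 1 week and give a second, separate comparison of 20% with control. There, 172 genes were higher (2.44%) and 133 lower (1.89%) by the same rule. Of the 182 genes higher at 1 week, 62 were higher at 1 month too, 34.1% of the 1 week list and 36.0% of the 1 month list, and 2 were lower. Of the 154 lower at 1 week, 56 were lower at 1 month, 36.4% and 42.1% of the lists, and 4 were higher. The sign was the same at 1 month for 153 of 182 (84.1%, against 50.8% of all genes) and 136 of 154 (88.3%, against 49.2%). The median difference of the higher genes was 1.29 at 1 week and 0.76 at 1 month, and of the lower genes -1.28 and -0.84. The rule picked the genes by the 1 week value, so the 1 week medians are part of the choice. Across the 7055 genes the 2 sets of differences had a Pearson r of 0.48 and a Spearman rho of 0.40, as a description of genes that share arrays.

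**Figure D4:**
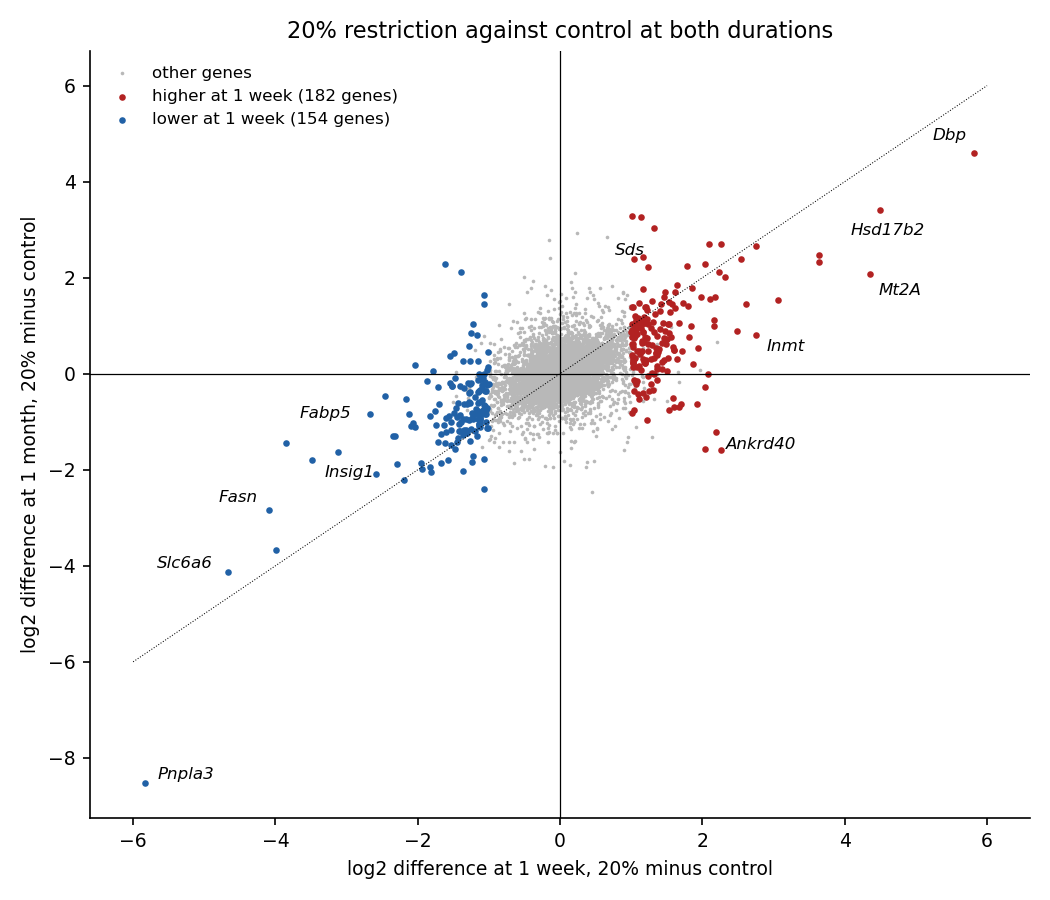
Log2 difference between the 20% and control pools at 1 week (x axis) and at 1 month (y axis) for 7055 genes. The genes higher (182) and lower (154) at 1 week by the size rule are coloured, and the dotted line marks equal differences. Of the coloured genes, 153 and 136 have the same sign at 1 month.

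By group, the lipogenic list had 0 higher and 5 lower at 1 month (median -0.48, against -1.04 at 1 week), the cholesterol list 0 and 9 (-0.70), and the clock list 7 and 2 (0.94). Fatty acid oxidation had 8 higher and 0 lower at 1 month, and the Atf4 list 0 higher and 1 lower (median -0.07). Pnpla3 (1.25 against 459 units), Fasn (143 against 1023), Slc6a6 (11.4 against 200.5), Hsd17b2 (1536 against 145), Cyp7a1 (247 against 38.2), Por (1072 against 169) and Dbp (172 against 7.11) passed the rule at 1 month in the same direction, each given as the 20% pool against its control. Fabp5 (log2 difference -0.83 at 1 month), Plin2 (-0.84), Inmt (0.81), Hamp (-0.27) and Sgk1 (0.05) did not pass it at 1 month. The Hamp control pool itself was higher at 1 month, 2168 units against 1208 at 1 week. Sds differed more at 1 month (2.22) than at 1 week (1.24). None of these differences between durations was tested.

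The test made of 20% against control is a limma fit over all 10 pools with level and duration as factors. It measures 20% against control over both durations and not at 1 week alone, and its error is the departure of the pools from an additive pattern. With Benjamini-Hochberg adjustment, 154 genes rose (2.18%) and 117 fell (1.66%) in limma at an adjusted p below 0.05. They included 76 of the 182 genes higher at 1 week and 68 of the 154 lower, but the fit holds the same 1 week pools that picked these genes, so this overlap and the adjusted p-values below are partly fixed by the choice and are no separate support. Limma gave adjusted p-values of 0.00067 for Pnpla3 and Hsd17b2 and also for Cpt1a, Ech1 and Eci1. The values were 0.0014 for Acly, 0.0039 for Fasn, 0.0079 for Insig1, 0.0048 for Mt2A, 0.0029 for Dbp and 0.010 for Cyp7a1 in limma. Hamp (adjusted p = 0.58), Sgk1 (0.26), Bmal1 (0.16), Plin2 (0.051) and Cyp2c12 (0.051) did not pass in limma. By list, limma called 11 of the 27 lipogenic, 8 of the 20 cholesterol and 1 of the 15 clock genes lower, and 6 clock, 5 bile acid, 9 fatty acid oxidation and 11 drug metabolism genes higher. Over probe sets 363 passed, 22 without the 1 week 20% pool, and 0 in limma without a variance trend (1426 at an unadjusted p below 0.05).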

How the data were processed

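The deposited values are linear intensity signals, 1 per probe set and array, from MAS5, the tool named in the submitters' processing notes. Version, scaling target and scanner output were not used here. The RNA kit is named differently in the series design and in the sample labels. The 20 arrays are not on a common scale (trimmed mean 38.4 to 98.8 units), so they were quantile normalized with limma 3.58.1 in R 4.3.3, after 32 zeros were set to the lowest positive value of their array, and log2 transformed. Control probe sets (57) were left out. Probe sets in the upper 60% by mean signal were kept (9520, of which 8120 name 1 gene, 245 several and 1155 none, by GEO's platform annotation), which gave 7055 genes by their brightest probe set. Both arrays of a pool carry the same RNA and were never counted as replicates, so the 1 week comparison has a size rule and no test, and the number of arrays limits its precision. The limma fit (lmFit and eBayes with a variance trend, two-sided) used 10 pool means, with level and duration as covariates and Benjamini-Hochberg adjustment over the 9520 probe sets, and was tested on simulated data. The genes, lists and comparison were chosen with earlier results of these data known. Named genes are the 15 largest in each direction, up to 4 past the rule per list, a fixed list of metabolic genes, the 6 farthest from all other pools in each direction and those opposite at 1 month; other list members are named as examples chosen after their values were seen. Some genes of the fixed list are not reported here, and Asns was under the signal limit. Alb holds the top rank on each array, which quantile normalization makes equal, so its difference is not informative. Alternatives were other scalings, filters, fold limits and leaving out each array or pool.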

Additional observations from a re-analysis of the deposited data

Results flagged for a closer look

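In the pools at 20%, 6 genes passed the size rule in opposite directions at 1 week and 1 month. The difference at 1 week minus that at 1 month was -3.90 for Rabepk, -3.51 for Cdk5rap3, -2.71 for Adra2b and -2.52 for Smarcd1, which were lower at 1 week and higher at 1 month, and 3.62 for Tpsb2 and 3.85 for Zfand2b, which were higher at 1 week and lower at 1 month. The difference between durations was not tested. All 6 were dim. Rabepk read 33.3 and 41.9 units in the 1 week control and 28.8 and 5.12 at 20%, so 1 array carries most of its difference. Tpsb2, a mast cell tryptase, read 5.40 and 1.70 against 9.78 and 15.9 units, and Zfand2b 5.88 and 1.93 against 17.4 and 14.9 units. With values under 11.7 units raised to that level, Tpsb2 was 1.07-fold and Zfand2b 1.38-fold higher at 1 week, and Adra2b 1.5-fold, Smarcd1 1.72-fold and Cdk5rap3 1.95-fold lower.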

How the results depend on the processing

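The 469 probe sets past the size rule at 1 week became 904 with the signals as deposited (808 higher and 96 lower; the median of all shifts by 0.40), 161 with 16 units added, 1889 with all probe sets, 240 in the upper 40% by signal and 1372 at 1.5-fold, and stayed within 1.5 times under median centring (505) and by size alone (548). Leaving out 1 array gave 535 to 781, the last without array 1 of the control. The share of 1 week probe sets also past the rule at 1 month, 33.7%, was 17.9% over all probe sets and 20.9% to 37.3% with 1 array left out (20.9% without array 1 of the 1 week control). The 363 probe sets passing limma (206 higher and 157 lower) became 630 as deposited (579 and 51), 203 under median centring, 197 and 238 from the arrays numbered 1 or 2 alone, 0 without the variance trend, and 22 to 169 with 1 pool left out (101 without the 1 week control, 22 without the 1 week 20% pool, 64 without the 1 month control and 169 without the 1 month 20% pool). The cause was not tested. Of 81 named genes past the rule, 50 passed under every alternative run on them and 31 missed it under at least 1, 27 of them with 16 units added. None changed direction. List members named only as examples were not run under the alternatives. The 81 genes had 16 other probe sets, all with the same sign, and 13 of these passed the rule. The probe sets that fell short were of Clock, Akr1c14 and Slc40a1. The median of 11 of 30 gene lists changed sign as deposited, 2 under median centring, and with 1 array left out 6 (array 1 of the control), 2 (array 2 of the control), 1 (array 1 at 20%) and 4 (array 2 at 20%). No paired analysis was possible because each group is 1 pool on 2 technical arrays, whose numbers pair nothing between groups. Dim probe sets also limit the comparison.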
